A study of Arabidopsis thaliana with 47 samples.

Results

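The tau and phi glutathione S-transferases of Arabidopsis were followed gene by gene through the root meristematic zone, the growing tip of the root. All genes named GSTF2 to GSTF14 (13 phi genes) and GSTU1 to GSTU28 (28 tau genes) were taken by locus code, which gave 41 members among the 36823 loci of the count table. RNA was sequenced from the meristematic zone of 6-day-old seedlings, with 50 root sections in each of 47 samples. The design crosses 3 genotypes with 24 h of treatment with mock, 0.3 nM or 5 nM RGF1, a small secreted peptide that acts on the root stem cell niche and on the transcription factor PLETHORA2 (PLT2). There were 5 samples in each of the 9 groups, except for 6 in each of the transgenic groups at 5 nM.

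The genotypes were the plt2 mutant, plt2 carrying gPLT2-GFP (genomic PLT2 fused to green fluorescent protein), and plt2 carrying gPLT2C212S-GFP, in which a cysteine of PLT2 is replaced by serine. They are called plt2, the gPLT2 line and the gPLT2C212S line here. All of them, the transgenic lines included, are in the plt2 background, and none of the groups used here is wild type. How many independent transformants stand behind each line is not given in the labels, so an effect of a transgene and an effect of its line cannot be told apart. The labels also do not say that replicates came from separate cultures, so p-values measure the spread between these samples, which may be technical.

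Glutathione S-transferases join the tripeptide glutathione to reactive or foreign compounds, and the conjugates are then moved into the vacuole. The tau and phi classes are the large plant-specific classes, known for herbicide detoxification and for rapid induction by stress, hormones and oxidised lipids. Some members are instead known for binding small molecules without conjugating them, or for a step in the making of defence compounds such as camalexin and glucosinolates. Many tau genes lie in tandem arrays of close relatives.

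Total counts lay between 7739807 and 10332541 per library, of which a pair of mitochondrial loci took 45.0% to 70.4%, leaving 2677329 to 5139527 counts for all other genes. PLT2 itself averaged 2.5 to 3.21 FPKM over the plt2 groups and 15.1 to 33.3 over the transgenic groups; the highest plt2 library (5.52) lay below the lowest transgenic library (12.0). The root cap markers SMB, BRN1 and BRN2 were present in every group. Meristem markers (5 genes) summed to 59.1 to 74.4 FPKM, with group means of WOX5 of only 0.134 to 1.23. At 5 nM, 2 of 4 tested meristem markers were called higher and 2 lower in the gPLT2 line. In the gPLT2C212S line 1 was higher and 2 were lower, and 0 of 4 were called in plt2. Between mock and 5 nM PLT1 went from 7.79 to 3.01 FPKM in the gPLT2 line and from 10.5 to 3.09 in the gPLT2C212S line. The B-type cyclin among them went from 8.72 to 14.2 and from 9.68 to 14.7. Summed levels of 4 shoot markers went from 6.64 FPKM under mock to 17.7 at 5 nM in the gPLT2 line and from 7.88 to 18.6 in the gPLT2C212S line, where both tested markers (LHCB1.3 and PSBO1) were called higher, against 6.27 and 4.89 in plt2. Summed levels of 6 markers of differentiated root went from 1.67 to 5.32 FPKM in the gPLT2C212S line and from 2.41 to 1.99 in the gPLT2 line. In plt2 they went from 4.003 to 0.864. Only 1 of the 6 was tested in each genotype, with CESA4 called higher in the gPLT2C212S line and COBL9 lower in plt2. These sums join genes of opposite course. In the gPLT2C212S line COBL9 went from 0.812 to 0.281 FPKM, while CESA4 went from 0.298 to 1.74. All 3 root cap markers were called lower at 5 nM in the transgenic lines. Their summed level went from 184 FPKM (119 to 231) under mock to 54.1 (31.4 to 78.6) at 5 nM in the gPLT2 line, and from 148 (137 to 163) to 58.1 (39.1 to 82.4) in the gPLT2C212S line. In plt2, where none of them was called, the sum averaged 210 (115 to 321) and 150 (91.1 to 183). In such bulk samples, fewer cells of a type and less RNA per cell cannot be told apart. No library stood apart from its group (correlation with the rest of its group 0.965 to 0.985).

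Levels are given as FPKM, here counts per kilobase of gene length divided by a DESeq2 size factor for each library, and are therefore comparable between genes. These size factors are not the total counts of the libraries. Fold changes are log2 differences fitted to the read counts. A gene is called higher or lower when its p, from edgeR's quasi-likelihood test and adjusted by Benjamini and Hochberg's method across every gene in that fit, was under 0.05.

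The stretches before the annotated gene starts are shown for GSTU11 (higher at 5 nM in both transgenic lines), GSTU25 (the most abundant member) and GSTU27 (lower at 5 nM in every genotype). Sequences and positions are from RefSeq assembly TAIR10.1, read 5′ to 3′ on the strand of the gene, with the last base directly before the annotated start. They lie at chr1:26338819-26339118 (minus strand), chr1:5871724-5872023 (plus) and chr3:15660470-15660769 (plus). Capitals mark TGACG (or its reverse complement CGTCA), the core bound by TGA factors, and TTGAC (or GTCAA), the core of the W-box bound by WRKY factors.
GSTU11: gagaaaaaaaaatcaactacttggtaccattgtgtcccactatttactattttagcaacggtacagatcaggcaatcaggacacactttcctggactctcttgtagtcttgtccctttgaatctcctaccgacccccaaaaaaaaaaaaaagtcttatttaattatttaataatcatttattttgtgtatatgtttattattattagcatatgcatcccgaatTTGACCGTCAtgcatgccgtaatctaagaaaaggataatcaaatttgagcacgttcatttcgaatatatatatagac
GSTU25: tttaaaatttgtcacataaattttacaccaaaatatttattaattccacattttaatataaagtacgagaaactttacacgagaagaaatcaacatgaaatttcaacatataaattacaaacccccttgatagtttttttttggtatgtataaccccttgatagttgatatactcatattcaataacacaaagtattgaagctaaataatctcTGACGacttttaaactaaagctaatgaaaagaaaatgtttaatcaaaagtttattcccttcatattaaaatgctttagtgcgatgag
GSTU27: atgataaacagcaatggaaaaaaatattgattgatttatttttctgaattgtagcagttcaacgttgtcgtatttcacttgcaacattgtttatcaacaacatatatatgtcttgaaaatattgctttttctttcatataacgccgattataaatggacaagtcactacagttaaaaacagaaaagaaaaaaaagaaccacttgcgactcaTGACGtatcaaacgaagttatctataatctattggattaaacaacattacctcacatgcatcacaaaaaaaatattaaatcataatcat

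TGACG lay within 300 bases of the start in 17 of 41 members (41.5%), against 21.3% of 27443 protein-coding genes. TTGAC was in the same window of 26 members (63.4%), against 50.4% of the genes. The cores overlap where the sequence reads TTGACG, so the counts are not independent, and a match is not a binding site. The nearest TGACG began 72 bases before the start in GSTU11, 87 in GSTU25 and 89 in GSTU27. In all, 8 of the 41 members, these included, held TGACG within 100 bases of the start. For this shorter window no share of all genes was computed. Of the members called higher at 5 nM in any genotype, GSTU5, GSTU11 and GSTU24 held TGACG within 300 bases. GSTF2, GSTF6, GSTF7, GSTF9, GSTF13, GSTU4 and GSTU10, also called higher in at least 1 genotype, held none. Of the members called lower at 5 nM in any genotype, GSTF10, GSTU1, GSTU5, GSTU6, GSTU7, GSTU22, GSTU25, GSTU26 and GSTU27 held TGACG within 300 bases. GSTF9, GSTU2, GSTU13, GSTU14, GSTU19 and GSTU20, also called lower in at least 1 genotype, held none. GSTU14, the member that fell most steeply with the peptide, held no TTGAC either. A link between the cores and the direction of change was not tested.

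The family was led by a few tau and phi genes. Averaged over all libraries, GSTU25 had 767 FPKM (rank 138 of 25722 loci in the FPKM table), GSTU19 had 612 (rank 180) and GSTF8 had 476 (rank 239). GSTU19 and GSTU25 are xenobiotic-inducible tau enzymes, and GSTF8 is a stress-inducible phi gene whose promoter is known for activity in root tips. GSTU7 (274 FPKM), GSTF10 (250.1), GSTF9 (229), GSTU1 (112) and GSTU22 (87.3) followed. GSTU25, GSTU19 and GSTF8 alone made up 47.2% to 65.4% of the family's summed FPKM, as group means. At the other end, 12 members never passed the count filter in any comparison (GSTF3, GSTF5, GSTF11, GSTF12, GSTF14, GSTU3, GSTU15, GSTU17, GSTU18, GSTU21, GSTU23 and GSTU28), with 6 to 173 counts in all over the 47 libraries. Among these barely detected genes are GSTF12, known for carrying anthocyanins and tannin precursors to the vacuole, and GSTF11, placed in aliphatic glucosinolate synthesis. GSTF3, GSTF5, GSTU15 and GSTU21 are not among the 37 members with FPKM values.

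Summed over the family, mean transcript levels in the transgenic lines were lower at each higher dose. The sum was 4093 ± 797 FPKM (SD, n = 5) in plt2 under mock, 4522 ± 182 at 0.3 nM and 3294 ± 436 at 5 nM. The gPLT2 line gave sums of 3793 ± 421, 3162 ± 137 and 2435 ± 261 (n = 6 at 5 nM). The gPLT2C212S line started lower, at 2966 ± 253, and gave 2899 ± 163 and 2434 ± 229 at the higher doses. These sums are descriptions without a test and rest mainly on the most abundant genes.

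GSTU25 (AT1G17180), known for conjugating glutathione to explosives such as trinitrotoluene, read 970, 1005, 1632, 1240 and 677 FPKM in the plt2 mock libraries, and 1255, 1117, 961, 693 and 856 at 5 nM. Among gPLT2 libraries it read 943, 925, 557, 1149 and 742 under mock, and from 283 to 501 with a median of 463 at 5 nM. The gPLT2 groups did not overlap, and GSTU25 fell there by 1.01 on the log2 scale (SE 0.167, adjusted p = 5.71e-05). Among gPLT2C212S libraries it began at 680, 555, 592, 588 and 440 and ran from 345 to 583 (median 381) at 5 nM. These ranges overlapped, with a log2 change of -0.47 (SE 0.135, adjusted p = 0.00687). In plt2 the change of -0.14 was not called (adjusted p = 0.691), yet the difference in response between lines was not called for this gene either.

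GSTU19 (AT1G78380), a tau enzyme with strong conjugating activity, was called lower at 5 nM in plt2 and the gPLT2 line. Under mock it read 757, 708, 1322, 885 and 644 FPKM in plt2, 852, 792, 609, 777 and 701 in the gPLT2 line, and 577, 485, 584, 364 and 333 in the gPLT2C212S line. At 5 nM it read 716, 566, 432, 389 and 470 in plt2, from 303 to 532 (median 429) in the gPLT2 line, and from 383 to 555 (median 459) in the gPLT2C212S line. The ranges of the 3 genotypes overlapped at 5 nM, after mock levels that were lowest in the gPLT2C212S line. The log2 change was -0.71 in plt2 (SE 0.191, adjusted p = 0.0258, a call lost in 5 of 10 fits that leave out a library), -0.85 in the gPLT2 line (SE 0.148, adjusted p = 0.0001) and 0.00 in the gPLT2C212S line (adjusted p = 0.996). The response in the gPLT2C212S line differed from that in the gPLT2 line by 0.85 (SE 0.217, adjusted p = 0.0184) and from that in plt2 by 0.76 (SE 0.252, adjusted p = 0.0439). The latter call was lost in 15 of 21 fits that leave out a library, with differences of 0.56 to 0.91 over all alternatives, and with the replicate block (0.80, adjusted p = 0.0589). With total-count scaling both calls were lost (0.60 with adjusted p = 0.197, and 0.68 with adjusted p = 0.11).

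GSTF8 varied little, with group means from 362 to 562 FPKM, and its response to 5 nM was not called in any genotype. GSTU7 went from 370 to 229 FPKM between mock and 5 nM in plt2, from 317 to 185 in the gPLT2 line and from 274 to 205 in the gPLT2C212S line, and was called lower in each (log2 changes of -0.66, -0.78 and -0.43). GSTF10, which binds the receptor kinase BAK1, went from 317 to 204 in the gPLT2 line and from 290 to 181 in the gPLT2C212S line, called lower in both, with log2 changes of -0.64 (adjusted p = 0.000143) and -0.69 (adjusted p = 1.69e-05). GSTU22 was called lower at 5 nM in the gPLT2 line, from 113 to 51.6 FPKM (log2 change -1.13, SE 0.191, adjusted p = 6.88e-05). The gPLT2C212S line was already at 62.5 under mock and at 58.6 at 5 nM, and the responses of the transgenic lines differed by 1.03 (SE 0.29, adjusted p = 0.0338, a call lost in 9 of 22 fits that leave out a library and with total-count scaling at 0.76). GSTU1 was called lower in plt2 and the gPLT2 line by 0.44 and 0.42, with adjusted p = 0.0486 and 0.0252, and the plt2 call was lost with the replicate block and in 7 of 10 fits that leave out a library. The gPLT2 call was lost with total-count scaling (-0.27, adjusted p = 0.271) and in 3 of 11 such fits.

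**Figure D1:**
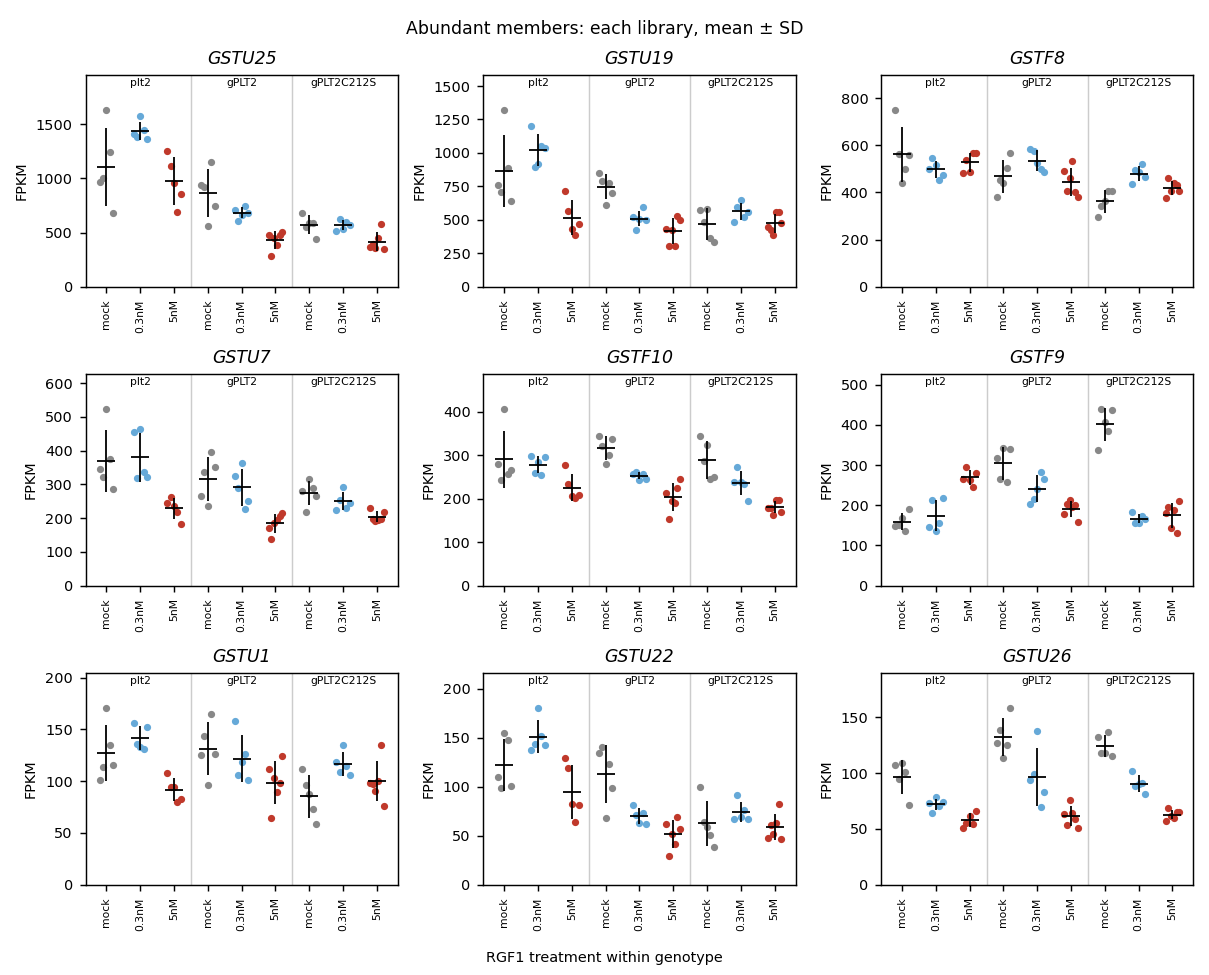
FPKM of 9 abundant members in every library (points), with group mean and SD (bars), by genotype and RGF1 dose. GSTU25 of the gPLT2 line drops from a mean of 863 under mock to 429 at 5 nM, and GSTF9 starts at 159 in plt2 mock roots against 304 and 401 in the transgenic lines.

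At 5 nM against mock, more members fell than rose in each genotype. In plt2, 3 members rose and 8 fell of 22 tested, where 2.82% of all tested genes rose and 6.62% fell (9.44% either way). The gPLT2 line had 5 members higher and 14 lower of 24 tested, against 23.2% and 24.3% of all genes (47.5%). The gPLT2C212S line had 8 higher and 11 lower of 25 tested, against 18.7% and 21.5% (40.2%). The median log2 change of the tested members was -0.33 in plt2, -0.47 in the gPLT2 line and -0.13 in the gPLT2C212S line, against 0.02, 0.03 and -0.00 for all genes tested. Since low genes pass the count filter mainly through the group where they are high, these counts describe the tested members and not the family. The same holds for the counts and medians of the other comparisons below. Scaling to total counts shifted the median of all genes by -0.10, 0.14 and -0.13 in the 3 genotypes, and the share of called genes that were higher went from 29.9% to 7.15%, from 48.8% to 59.6% and from 46.5% to 28.3%. By class, of 17 tau genes tested in plt2, 1 rose and 8 fell; of 19 in the gPLT2 line, 3 rose and 12 fell; and of 18 in the gPLT2C212S line, 5 rose and 9 fell. Of the phi genes tested, 2 of 5 were higher and 0 lower in plt2, 2 of 5 higher and 2 lower in the gPLT2 line, and 3 of 7 higher and 2 lower in the gPLT2C212S line. A difference between the classes was not tested. The root cap markers given above were also called lower at 5 nM in both transgenic lines and not in plt2, and shoot markers were called higher there; their part in the members' changes was not tested.

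Of 22 members tested in all 3 genotypes, GSTF6 and GSTU10 rose in each (9.09%, against 1.46% of 15398 genes), and GSTU6, GSTU7, GSTU14, GSTU26 and GSTU27 fell in each (22.7%, against 4.23%). GSTU5 and GSTF9 moved in opposite directions in different genotypes (9.09%, against 0.974%). GSTF6 held 20, 27 and 24 counts over the mock libraries of plt2, the gPLT2 line and the gPLT2C212S line. Like GSTU10 it passed the count filter mainly through libraries where it was high. The share that rose was therefore shaped by the filter and describes the tested members only.

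**Figure D2:**
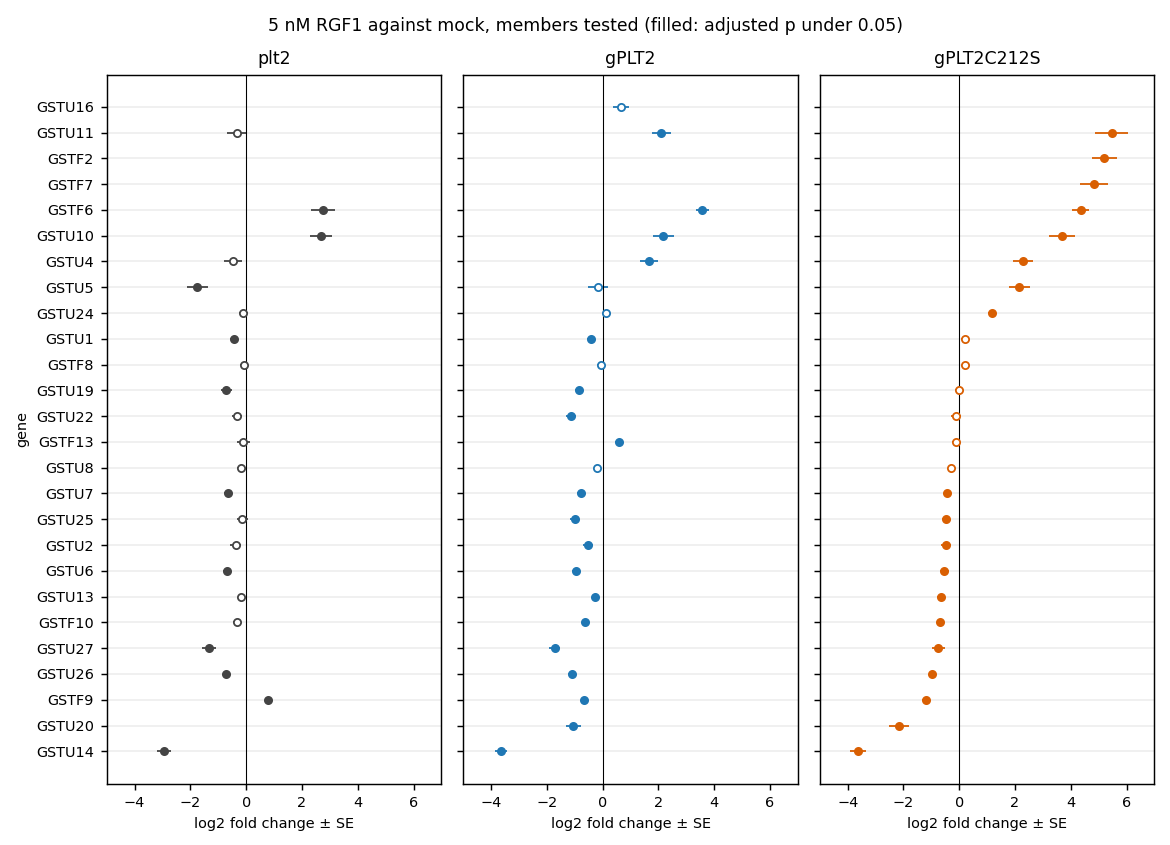
Log2 fold change (± SE) of each tested member at 5 nM RGF1 against mock, with one panel per genotype; filled points passed edgeR's quasi-likelihood test at adjusted p under 0.05. GSTU14 lies at -2.95, -3.64 and -3.62 in the 3 panels, and GSTF6 at 2.76, 3.56 and 4.36.

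GSTF6 (AT1G02930), a phi enzyme known for conjugating glutathione in camalexin synthesis, rose in every genotype. Its mock libraries read 1.77, 0.615, 0, 0.987 and 0.583 FPKM in plt2, 1.33, 1.99, 1.13, 1.25 and 0.828 in the gPLT2 line, and 1.36, 0.501, 2.05, 0.476 and 1.26 in the gPLT2C212S line. At 5 nM it read 6.08, 5.79, 6.91, 3.18 and 6.57 in plt2, 11.9 to 19.0 (median 16.0) in the gPLT2 line and 13.9 to 36.3 (median 23.7) in the gPLT2C212S line. Every treated library lay above every mock library of its genotype. The log2 increase was 2.76 in plt2 (SE 0.433, adjusted p = 0.000624), 3.56 in the gPLT2 line (SE 0.234, adjusted p = 4.52e-10) and 4.36 in the gPLT2C212S line (SE 0.299, adjusted p = 2.25e-11). Levels at 5 nM were higher than in plt2 by 1.44 in the gPLT2 line (SE 0.19, adjusted p = 4.73e-06) and by 2.11 in the gPLT2C212S line (SE 0.215, adjusted p = 7.07e-09). The responses themselves did not pass the test of their difference (adjusted p = 0.366 for the gPLT2 line against plt2, 0.0883 for the gPLT2C212S line against plt2 and 0.38 between the transgenic lines).

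GSTU10 (AT1G74590) rose alongside in all 3 genotypes, from 0.182, 0.422, 0.759, 1.78 and 1.2 to 5.48, 5.72, 6.57, 3.68 and 5.57 FPKM in plt2. Its mean at 5 nM was 5.40 ± 1.05 in plt2, 3.92 ± 1.04 in the gPLT2 line and 6.15 ± 1.72 in the gPLT2C212S line, and no treated library overlapped a mock library. The log2 increases were 2.68 (SE 0.397, adjusted p = 0.000402), 2.18 (SE 0.391, adjusted p = 0.000131) and 3.68 (SE 0.46, adjusted p = 5.95e-07). GSTU12, a low gene picked after its values were seen, had no test of the dose because it did not pass the filter. Its means went from 0.523 to 3.52 FPKM in plt2, from 0.215 to 2.24 in the gPLT2 line and from 0.157 to 3.59 in the gPLT2C212S line.

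Other phi genes rose mainly from near 0. GSTF2 (AT4G02520), which binds auxin and camalexin without turning them over, read 0.219, 0, 0.165, 0.192 and 0.408 FPKM in gPLT2C212S mock libraries and 5.65 to 14.7 (median 6.92) at 5 nM. No mock library of any genotype held more than 3 counts of it, so the change is given as a ratio of summed scaled counts with its exact 95% counting interval. This ratio was 16.1 in plt2 (5.96 to 60.8), 10.2 in the gPLT2 line (4.76 to 25.9) and 41.4 in the gPLT2C212S line (17.5 to 129). At 5 nM GSTF2 was higher in the gPLT2C212S line than in the gPLT2 line (1.49 to 4.02, median 2.31 FPKM), with no overlap and a log2 difference of 1.61 (SE 0.273, adjusted p = 0.00109).

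GSTF7 (AT1G02920), a pathogen-inducible neighbour of GSTF6, was highest in the gPLT2C212S line at 5 nM and not at the lower doses. It read 0.266, 0.734, 0.401, 0 and 0 FPKM there under mock and 3.13 to 14.1 (median 9.67) at 5 nM, a ratio of summed counts of 31.5 (14.2 to 86.8). The gPLT2 line reached 0.649 to 3.35 (median 1.12) at 5 nM, and in plt2 0.991, 0.906, 1.04, 0.583 and 0.378. At 5 nM the gPLT2C212S line exceeded the gPLT2 line by 2.59 on the log2 scale (SE 0.353, adjusted p = 0.000111), although the ranges overlapped, and exceeded plt2 by 3.53 (SE 0.385, adjusted p = 2.11e-08). GSTF6 and GSTF7 share 94.3% of their coding bases, and how the counting treated reads that fit both is not given in the sources used here, so their division is uncertain. GSTF6 differed between the transgenic lines at 5 nM by only 0.67 (SE 0.17, adjusted p = 0.024), with overlapping libraries. GSTF2 likewise shares 94.5% with GSTF3, which had almost no counts.

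The tau genes GSTU11 and GSTU4 rose at 5 nM in both transgenic lines and were not called in plt2. GSTU11 (AT1G69930) read 3.86, 2.68, 10.5, 9.15 and 4.67 FPKM in plt2 under mock and 7.74, 3.03, 4.35, 3.47 and 5.06 at 5 nM, a log2 change of -0.32 that was not called (adjusted p = 0.618). The gPLT2 libraries read 1.74, 1.09, 0.619, 2.05 and 1.58 under mock and 3.45 to 8.95 (median 5.96) at 5 nM, without overlap (log2 change 2.09, SE 0.34, adjusted p = 4.55e-05). For the gPLT2C212S line a single count was found over the 5 mock libraries (0, 0, 0, 0.26 and 0 FPKM), against 2.66 to 4.81 (median 3.83) at 5 nM. The ratio of summed counts was 72.9 with a wide interval (12.7 to 2913). The response exceeded that of plt2 by 2.44 in the gPLT2 line (SE 0.527, adjusted p = 0.00332). For the gPLT2C212S line the fitted difference from plt2 (5.87, adjusted p = 7.49e-06) rests on that single count, and its size depends on the prior count of the fit.

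GSTU4 (AT2G29460) read 2.85, 4.13, 3.97, 5.22 and 2.16 FPKM in plt2 under mock and 3.32, 3.04, 1.07, 2.61 and 2.53 at 5 nM, which was not called (log2 change -0.48, adjusted p = 0.381). The gPLT2 libraries read 3.21, 6.52, 1.91, 0.948 and 2.09 under mock and 6.32 to 14.5 (median 8.88) at 5 nM. The highest mock library overlapped the treated ones, and GSTU4 rose by 1.66 (SE 0.325, adjusted p = 0.000311). The gPLT2C212S libraries read 2.47, 0.505, 1.03, 0.96 and 0.509 under mock and 4.45 to 7.58 (median 4.95) at 5 nM, apart from each other (log2 change 2.29, SE 0.356, adjusted p = 1.31e-05). The responses of both transgenic lines exceeded that of plt2, by 2.16 (SE 0.493, adjusted p = 0.00517) and 2.82 (SE 0.489, adjusted p = 0.000168).

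GSTU5 (AT2G29450) took opposite courses. In plt2 it fell from 17.2, 10.3, 16.5, 12 and 3.27 FPKM under mock to 6.39, 4.11, 2.24, 2.23 and 2.35 at 5 nM (log2 change -1.76, SE 0.383, adjusted p = 0.0077), with overlap through the lowest mock library. In the gPLT2C212S line it rose from 1.02, 0.935, 1.34, 2 and 1.18 to 2.76 to 9.96 (median 5.39), without overlap (log2 change 2.15, SE 0.37, adjusted p = 4.78e-05). For the gPLT2 line the means were 4.83 ± 1.93 and 4.41 ± 2.02, and no change was called (adjusted p = 0.725). At 5 nM the 3 genotypes thus held 3.46 ± 1.82, 4.41 ± 2.02 and 6.02 ± 2.96 FPKM, having started at 11.9 ± 5.62, 4.83 ± 1.93 and 1.29 ± 0.425. The response of the gPLT2C212S line exceeded that of plt2 by 3.96 (SE 0.576, adjusted p = 1.73e-05) and that of the gPLT2 line by 2.32 (SE 0.562, adjusted p = 0.0124).

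GSTU24 (AT1G17170), like GSTU25 an enzyme of trinitrotoluene conjugation, was low in a single group, the gPLT2C212S line under mock. It read 46.2, 31.2, 29.6, 39.3 and 33.2 FPKM there, against 82.3, 66.4, 104, 101 and 71 in plt2 and 65.5, 79.6, 61.1, 82.7 and 80.2 in the gPLT2 line. With peptide the gPLT2C212S line read 71.8, 101, 95.3, 103 and 87.7 at 0.3 nM and 65.9 to 97.2 (median 77.0) at 5 nM. The gPLT2C212S means were 91.7 ± 12.5 and 80.9 ± 13 FPKM at these doses, and the means of the other genotypes over all doses ran from 73.8 to 85.1 FPKM. The log2 increase was 1.37 at the lower dose (SE 0.133, adjusted p = 1.94e-07) and 1.17 at the higher dose (SE 0.131, adjusted p = 1.05e-07), and the response to the higher dose exceeded those of plt2 by 1.32 (SE 0.207, adjusted p = 4.97e-05) and of the gPLT2 line by 1.04 (SE 0.184, adjusted p = 0.000591). With total-count scaling the latter difference was 0.78 and not called (adjusted p = 0.0987). The mock libraries are shared by these comparisons, so the low mock group enters each of them.

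**Figure D3:**
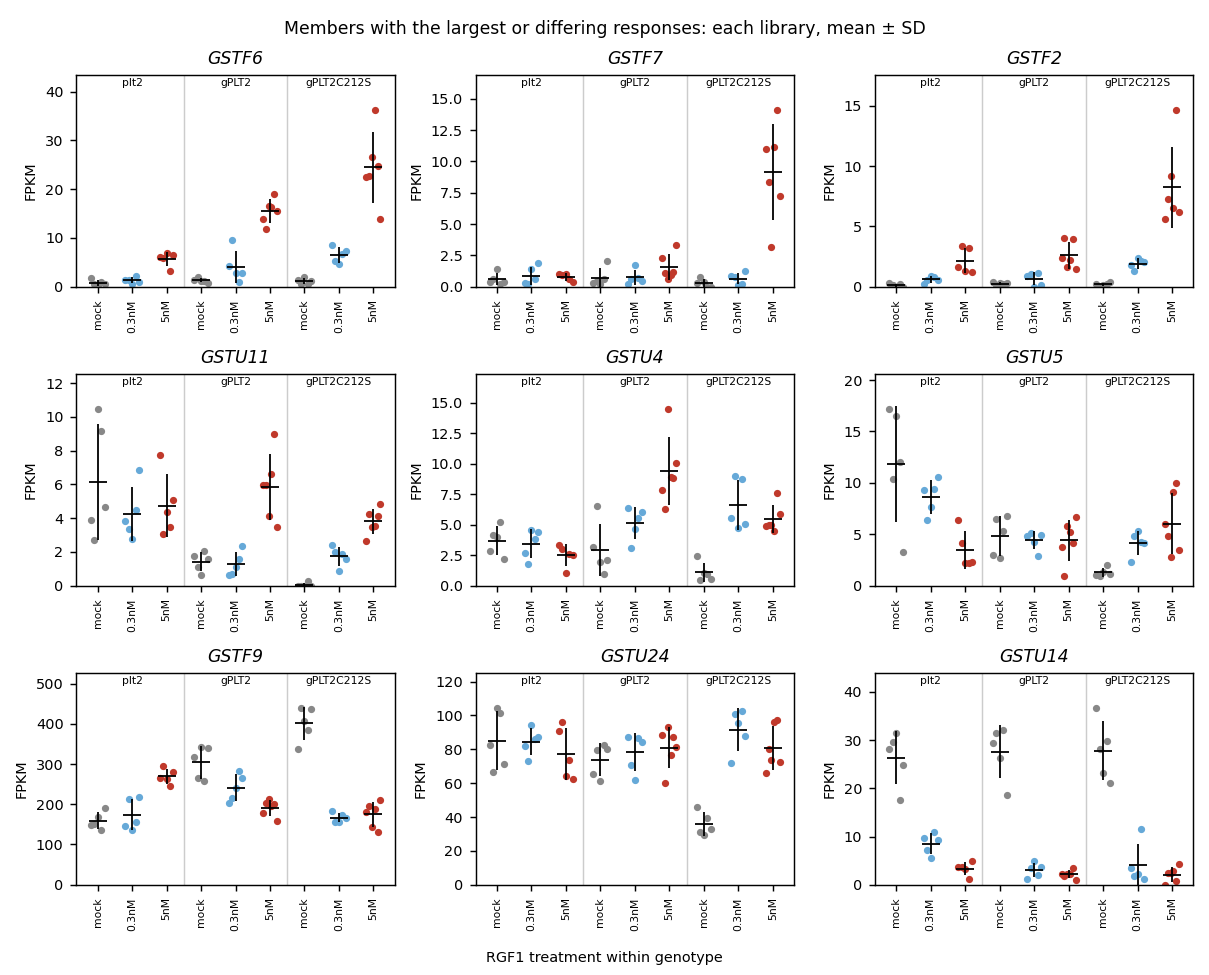
FPKM of 9 responsive members in every library (points) with group mean and SD (bars), by genotype and RGF1 dose in nM. GSTF6 rises in all genotypes, GSTU14 falls in all, and GSTU24 is low in the gPLT2C212S mock group (29.6 to 46.2 FPKM).

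Among the members that fell, GSTU14 (AT1G27140) changed most. It read 28.2, 29.6, 31.4, 17.5 and 24.8 FPKM in plt2 under mock, 9.69, 7.15, 5.44, 11 and 9.31 at 0.3 nM and 3.67, 3.63, 3.21, 1.2 and 4.89 at 5 nM. The gPLT2 libraries read 29.4, 31.5, 26.2, 32.1 and 18.7, then 1.12, 3.44, 4.91, 2.02 and 3.59, and 0.952 to 3.53 (median 2.15) at 5 nM. The gPLT2C212S libraries read 36.7, 28.1, 23.2, 29.9 and 21, then 3.45, 1.89, 2.27, 11.6 and 1.08, and 0 to 4.2 (median 2.43). No treated library reached a mock library of its genotype. At 5 nM the log2 changes were -2.95 (SE 0.258, adjusted p = 4.36e-06), -3.64 (SE 0.223, adjusted p = 1.51e-10) and -3.62 (SE 0.288, adjusted p = 3.22e-10). Under mock the genotypes differed by at most 0.07, and none of the tests of a difference in response passed (adjusted p = 0.274, 0.429 and 0.986). GSTU14 shares 82.0% of its coding bases with its neighbour GSTU13, known for a role in indole glucosinolate metabolism. At 5 nM GSTU13 was called lower in the gPLT2C212S line by only 0.67 (SE 0.125, adjusted p = 0.000139). In the gPLT2 line it was also called lower, with log2 changes of -0.33 to -0.15 over all alternatives. That call was lost in 3 of 7 other settings and in 4 of 11 fits that leave out a library.

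GSTU26 and GSTU27 also fell in every genotype. GSTU26 (AT1G17190) read 107, 95, 109, 101 and 71.7 FPKM in plt2 mock libraries and 50.5, 55.2, 61.6, 54.3 and 66.3 at 5 nM, a log2 change of -0.72 (SE 0.126, adjusted p = 0.00159). It fell from 133 ± 17 to 61.3 ± 8.94 FPKM in the gPLT2 line (log2 change -1.11, SE 0.115, adjusted p = 1.95e-07) and from 124 ± 9.8 to 62.7 ± 4.29 in the gPLT2C212S line (-0.99, SE 0.0982, adjusted p = 1.45e-08). The 5 nM libraries of the 3 genotypes lay in the same range, and in none of them did a mock library overlap a treated one. GSTU27 (AT3G43800) read 25.3, 23.7, 24.9, 22 and 26.3 in gPLT2 mock libraries and 4.01 to 11.8 (median 7.79) at 5 nM, a log2 change of -1.71 (SE 0.197, adjusted p = 8.19e-07). The change was -1.34 in plt2 (SE 0.245, adjusted p = 0.00229) and -0.75 in the gPLT2C212S line (SE 0.228, adjusted p = 0.0102), where the groups overlapped. Without gPLT2C212S mock replicate 1, the highest mock library, that change was -0.48 and not called (adjusted p = 0.0647).

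GSTU20 (AT1G78370), placed in aliphatic glucosinolate synthesis and named here after its values were seen, fell in the transgenic lines. It went from 4.26 ± 0.609 FPKM to 2.07 ± 0.484 in the gPLT2 line (log2 change -1.05, SE 0.267, adjusted p = 0.00286) and from 5.52 ± 1.13 to 1.20 ± 0.822 in the gPLT2C212S line (-2.17, SE 0.364, adjusted p = 3.55e-05). In plt2 it was low throughout, at 1.46, 2.33, 2.04, 1.02 and 0 under mock. The response of the gPLT2C212S line differed from that of plt2 by -2.82 (SE 0.686, adjusted p = 0.00571).

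GSTF9 (AT2G30860), an abundant phi gene next to GSTF10, took opposite courses with and without the PLT2 transgenes. In plt2 it rose from 148, 151, 169, 136 and 190 FPKM to 265, 296, 264, 245 and 279 at 5 nM (log2 change 0.79, SE 0.113, adjusted p = 0.000305). In the gPLT2 line it fell from 317, 264, 344, 257 and 340 to 158 to 213 (median 198; log2 change -0.67, SE 0.113, adjusted p = 6.65e-05). In the gPLT2C212S line it fell from 339, 440, 406, 384 and 436 to 131 to 210 (median 184; log2 change -1.21, SE 0.122, adjusted p = 1.9e-08). Mock and treated libraries were apart in all 3 genotypes. The response differed from that of plt2 by -1.45 in the gPLT2 line (SE 0.156, adjusted p = 4.31e-07) and by -1.95 in the gPLT2C212S line (SE 0.17, adjusted p = 2.14e-09), while that between the transgenic lines was not called (-0.53, adjusted p = 0.0633). GSTF9 and GSTF10 share 77.6% of their coding bases.

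The lower dose was tested against the same mock libraries. At 0.3 nM, 1 of 20 tested members was called in plt2, where 0.0504% of all genes were (0.0315% higher, 0.0189% lower), and this was GSTU14, lower by 1.63 (SE 0.21, adjusted p = 0.0014). Without adjustment, 6 of the 20 had p under 0.05, for which no share of all genes was computed. Among gPLT2 samples 6 of 22 tested members fell and 0 rose, against 9.08% and 6.14% of all genes (15.2% either way), and 11 had an unadjusted p under 0.05. No share of all genes stands beside this unadjusted number either, so nothing is read from it. The members that fell were GSTU14, GSTU27, GSTU22, GSTU19, GSTU26 and GSTF10, with GSTU14 at -3.21 (SE 0.257, adjusted p = 2.21e-08) and GSTU27 at -0.84 (SE 0.162, adjusted p = 0.000984). The summed root cap markers averaged 120 FPKM (101 to 167) in that group.

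At 0.3 nM in the gPLT2C212S line, 7 of 23 tested members rose and 5 fell, against 11.9% and 11.1% of all genes (22.9% either way). With libraries scaled to total counts the split was 8 and 3, and the share of all called genes that were higher went from 51.8% to 84.2%. GSTU4 rose from a mean of 1.09 ± 0.805 to 6.61 ± 2.06 FPKM (log2 change 2.58, SE 0.375, adjusted p = 3.41e-05), and GSTF6 from 1.13 ± 0.66 to 6.54 ± 1.58 (2.48, SE 0.349, adjusted p = 2.36e-05). GSTU16, named after its values were seen, rose from 1.19 ± 0.573 to 4.98 ± 1.02 (2.03, SE 0.337, adjusted p = 0.000147), and GSTU5 rose by 1.67 (SE 0.331, adjusted p = 0.000887). GSTU24, GSTU1 and GSTF8 were also called higher. GSTU14 fell by 2.74 (SE 0.352, adjusted p = 7.94e-06) and GSTF9 by 1.26, from 401 ± 41.7 to 167 ± 11.5 FPKM (SE 0.113, adjusted p = 7.18e-08). GSTF13 was low at the middle dose. It averaged 38.1 FPKM under mock, 18.4 at 0.3 nM (log2 change -1.04, SE 0.148, adjusted p = 2.8e-05) and 35.1 at 5 nM, where it was not called (adjusted p = 0.44). Root cap markers averaged 63.9 FPKM (47.3 to 79.1) at 0.3 nM in this line, and all 3 were called lower.

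Mock roots of both transgenic lines were compared with the same plt2 libraries. The gPLT2 line had 2 of 21 tested members higher and 1 lower than plt2, against 1.45% and 1.08% of all genes (2.54% either way). With libraries scaled to total counts the split was 1 higher and 2 lower. The share of all called genes that were higher then went from 57.3% to 24.0%. GSTF9 was higher by 0.96 (SE 0.128, adjusted p = 0.000517) and GSTU8 by 0.63 (SE 0.142, adjusted p = 0.0265, a call lost in 5 of 10 fits that leave out a library, and with total-count scaling, the mitochondrial covariate or the replicate block at 0.47, 0.44 and 0.63). GSTU11 was lower by 2.10 on that scale (SE 0.43, adjusted p = 0.0162), and by 2.03 without gPLT2 mock replicate 2, where the call was lost (adjusted p = 0.0546). The gPLT2C212S line had 4 of 22 higher and 10 lower, against 6.83% and 11.8% (18.7%), with a median log2 difference of -0.42 against 0.00 for all genes. The lower members included GSTU5 (-3.15, SE 0.411, adjusted p = 5.27e-05), GSTU24 (-1.24, SE 0.156, adjusted p = 3.45e-05), GSTU25 (-0.95, SE 0.193, adjusted p = 0.00231) and GSTU19 (-0.88, SE 0.202, adjusted p = 0.00573). GSTU11 was lower too, with 1 count against 127 (summed ratio of plt2 over the gPLT2C212S line 111, interval 19.5 to 4400). The higher members included GSTU20 (2.00, SE 0.438, adjusted p = 0.00405, lost with the mitochondrial covariate at 1.83), GSTF9 (1.34, SE 0.126, adjusted p = 2.71e-06) and GSTF13 (1.06, SE 0.235, adjusted p = 0.00443).

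Against the gPLT2 line under mock, the gPLT2C212S line had 1 member higher and 6 lower of 20 tested, where 2.23% of all genes were higher and 6.55% lower (8.77% either way). GSTU5 was lower by 1.86 in this comparison (SE 0.36, adjusted p = 0.00184), GSTU24 by 1.04 (SE 0.136, adjusted p = 2.92e-05) and GSTU22 by 0.85 (SE 0.206, adjusted p = 0.0112). GSTF13 was the member called higher, by 0.59 (SE 0.142, adjusted p = 0.0102), a call lost with total-count scaling (0.55, adjusted p = 0.132). At 0.3 nM 1 of 23 members was called between these lines (GSTF9, lower in the gPLT2C212S line by 0.53, SE 0.11, adjusted p = 0.00404), against 7.39% of all genes (3.4% higher, 3.99% lower). At 5 nM 3 were higher and 2 lower of 25, against 2.2% and 2.06% of all genes (4.27%). Scaling to total counts turned this split into 2 higher and 7 lower, and shifted the median of all genes by -0.35. It also took the share of all called genes that were higher from 51.6% to 3.54%. The members higher in the gPLT2C212S line at 5 nM were GSTF2, GSTF6 and GSTF7, and those lower were GSTU4 (-0.77, SE 0.212, adjusted p = 0.0373) and GSTU13 (-0.42, SE 0.0995, adjusted p = 0.0152). GSTF2 and GSTF7 were tested in only 7 and 5 of the 18 comparisons, mainly through libraries where they were high. The number of higher members was therefore shaped by the filter and describes the tested members only.

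With peptide, both transgenic lines were compared with plt2 at the same dose. At 0.3 nM the gPLT2 line had 5 members higher and 8 lower of 22 than plt2, against 31.3% of all genes called (14.3% and 17%), and the gPLT2C212S line had 6 higher and 9 lower of 21, against 46.4% (22.2% and 24.2%). At 5 nM the counts were 5 and 6 of 25, against 38.5% (17.8% and 20.7%), and 6 and 7 of 26, against 45% (21.8% and 23.2%). With total-count scaling the gPLT2C212S split at 0.3 nM became 6 and 4, and the gPLT2 split at 5 nM became 5 and 2. The share of all called genes that were higher went from 47.8% to 76.9% in the former comparison and from 46.2% to 52.9% in the latter. GSTU25 showed the difference at both doses. At 0.3 nM it read 1406, 1385, 1572, 1444 and 1366 FPKM in plt2, against means of 681 ± 51 in the gPLT2 line (log2 difference -1.06, SE 0.113, adjusted p = 2.35e-07) and 567 ± 46.3 in the gPLT2C212S line (-1.34, SE 0.112, adjusted p = 4.7e-09). At 5 nM the differences were -1.20 (SE 0.153, adjusted p = 2.96e-06) and -1.24 (SE 0.141, adjusted p = 4.84e-08). GSTF13 went the other way at 5 nM, higher by 1.17 (SE 0.149, adjusted p = 2.96e-06) and by 1.07 (SE 0.131, adjusted p = 1.68e-07).

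The 5 nM responses of the genotypes were also compared directly. The gPLT2 line responded differently from plt2 in 3 of 27 tested members (2 more positive, 1 more negative), against 9.76% of all genes (3.42% and 6.34%). The gPLT2C212S line differed from plt2 in 9 of 28 (7 and 2), against 12.4% (6.41% and 6%), and from the gPLT2 line in 7 of 29 (6 and 1), against 4.82% (3.26% and 1.57%). In this last comparison the median difference of the tested members was 0.64, against -0.02 for all genes, and the members with a more positive response in the gPLT2C212S line were GSTF7, GSTU5, GSTU11, GSTU19, GSTU22 and GSTU24. The count there fell to 2 when libraries were scaled to total counts. These 3 comparisons share libraries pairwise. Low genes such as GSTF7 pass the filter of these fits mainly through the group where they are high. The counts and the median of this paragraph therefore describe the tested members and not the family.

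Of the 41 members, 27 lie in 8 gene clusters, with up to 2 other protein-coding genes allowed between neighbours, and 14 lie alone. The largest cluster holds the 7 genes GSTU1 to GSTU7 on chromosome 2, and its members did not move together in the transgenic lines. In plt2 at 5 nM all of its called members (GSTU1, GSTU5, GSTU6 and GSTU7) fell. In the gPLT2C212S line at 5 nM GSTU4 and GSTU5 rose while GSTU2, GSTU6 and GSTU7 fell (the GSTU2 call was lost with DESeq2, no filter, the replicate block and 6 of 11 fits that leave out a library), and in the gPLT2 line GSTU4 rose while GSTU1, GSTU2, GSTU6 and GSTU7 fell. In the cluster of GSTU24, GSTU25 and GSTU26 on chromosome 1, GSTU24 rose in the gPLT2C212S line, by 1.17 at 5 nM, whereas GSTU25 and GSTU26 fell there. GSTF6 and GSTF7 rose side by side in that line, while GSTF4 and GSTF5 in the same cluster had no test of the dose there. GSTF4 passed the filter in only 2 of the 18 comparisons and was called in none. Its mean in that line was 1.33 FPKM under mock and 2.79 at 5 nM. GSTF5 was never tested. GSTU5 and GSTU6 share 83.1% of their coding bases, GSTU1 and GSTU2 85.5% and GSTU24 and GSTU25 79.4%, so some reads of neighbours may be interchangeable. GSTF2, GSTF4, GSTF8, GSTF10, GSTU2, GSTU6, GSTU7 and GSTU10 also overlap another annotated gene, and whether the counting used strand is not given in the sources used here.

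**Figure D4:**
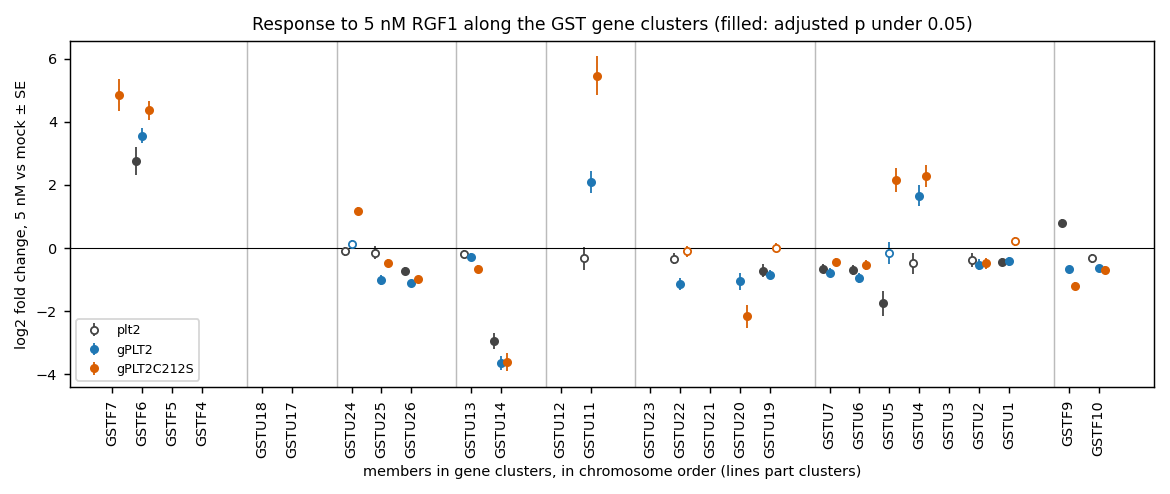
Log2 fold change (± SE) at 5 nM RGF1 against mock along the 8 gene clusters, with members in chromosome order and 1 colour per genotype. GSTU4 and GSTU5 lie above 0 in the gPLT2C212S line beside GSTU6 and GSTU7 below 0; the point of GSTU11 in that line rests on 1 mock count.

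Likeness between members was described by Pearson's r over the 9 group means of log2(FPKM + 1), which share libraries and scaling and carry no test. GSTU7 was most like GSTU6 (0.965), its neighbour in the cluster, and GSTU25 most like GSTU22 (0.96). GSTU10 was most like GSTU12 (0.958), GSTF6 most like GSTF2 (0.95) and GSTU4 most like GSTU16 (0.94). GSTF10 was most like GSTU2 (0.929), whereas its neighbour GSTF9 was most like GSTU20 (0.658).

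Genes that supply glutathione or move its conjugates were set beside the family, from lists drawn up with earlier results of these data known. The counts below stand against all tested genes at 5 nM, of which 2.82% rose and 6.62% fell in plt2, 23.2% and 24.3% in the gPLT2 line, and 18.7% and 21.5% in the gPLT2C212S line. Whether a list differs from these shares was not tested. Glutathione reductases GR1 and GR2, which keep glutathione reduced, were the 2 of 5 tested supply genes that rose at 5 nM in the gPLT2 line (log2 changes 0.43 and 0.62), and 2 of 6 in the gPLT2C212S line (0.36 and 0.61). The vacuolar conjugate pumps ABCC3 and ABCC4 rose in both lines, out of 4 tested. ABCC3 went from 9.29 to 17.1 FPKM in the gPLT2 line (log2 change 0.88) and from 9.59 to 19.98 in the gPLT2C212S line (1.05, adjusted p = 3.06e-08). In plt2, 0 of the 5 supply genes and 0 of the 4 pumps were called. Of 6 tested glutathione peroxidases, 1 rose and 3 fell in the gPLT2 line and 3 fell in the gPLT2C212S line, among them GPX8 (-0.91 and -0.98). Of 9 tested genes of other glutathione transferase classes, 3 fell and 0 rose in each transgenic line, and 0 were called in plt2. The dehydroascorbate reductase DHAR2 fell from 60.1 to 29.5 FPKM in the gPLT2 line (log2 change -1.02, adjusted p = 4.07e-06).

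Regulators and co-regulated targets of detoxification were mixed, and are read against the same shares of all genes (9.44% called in plt2, 47.5% in the gPLT2 line and 40.2% in the gPLT2C212S line). In plt2 2 of 9 tested genes fell, in the gPLT2 line 3 of 10 rose and 3 fell, and in the gPLT2C212S line 4 rose and 3 fell of 10. The oxophytodienoate reductases OPR1 and OPR2 fell in all 3 genotypes. In the gPLT2 line OPR1 fell from 252 to 77.1 FPKM (log2 change -1.71, adjusted p = 9.35e-10) and OPR2 from 54.2 to 19.2 (-1.50). The cytochrome P450 gene CYP81D8 rose from 1.29 to 4.91 FPKM in the gPLT2 line (1.97, adjusted p = 1.38e-05) and from 0.735 to 4.12 in the gPLT2C212S line (2.45, adjusted p = 5.68e-06). Of 12 genes of aliphatic glucosinolate synthesis 5 were tested: 2 rose in plt2, and 2 fell in each transgenic line, among them the regulator MYB28 in the gPLT2 line, from 284 to 138 FPKM (log2 change -1.05, adjusted p = 0.00078). None of the 6 anthocyanin genes passed the filter at 5 nM.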

How the data were processed

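RNA-seq of 47 libraries was analysed from tables the authors deposited: whole-number read counts for 36823 loci and FPKM for 25722 loci. Per the submitters' processing notes, HISAT2 2.1.0, featureCounts and Subread 2.0.3, DESeq 1.34.0 and build TAIR10 were used; the settings, use of strand and treatment of shared reads are not given in the sources used here. The deposited FPKM equalled counts divided by DESeq2 size factors and gene length over 16449 loci, with relative deviations of at most 9.99e-15. Positions, coding identity and sequences came from RefSeq TAIR10.1 and served no test.

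Libraries were grouped by their labels, and 0 columns were left without a sample. Replicate pairs within groups differed in their counts, with chi-square values of 3.04 to 58.1 per degree of freedom over 100 pairs. Counts were tested in R 4.3.3 with edgeR 4.0.16 (limma 3.58.1): filterByExpr with minimum count 10, TMM scaling, the quasi-likelihood F test, and Benjamini-Hochberg adjustment over all genes tested, called at 0.05. Each fit held only the groups compared, and differences in response were interaction terms over 4 groups. The scripts were tested on simulated data. For members with at most 3 counts in every library of a group, ratios of summed counts per size factor carry exact 95% intervals, which cover counting error only. Alternatives were DESeq2 1.42.0, total-count scaling, no filter, 1 fit over all 47 libraries, the share of a pair of mitochondrial loci as a covariate, the replicate number as a block, and leaving out each library. Replicate numbers did not pair samples: in 0 comparisons did every same-numbered pair correlate above 0.1. Sequences were read with Biopython 1.88 under Python 3.11.15, and figures drawn with matplotlib 3.10.9.

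The members and lists were chosen with earlier results of these data known. Members named by rule were the 8 of highest mean FPKM, the 3 called with the highest and the 3 with the lowest fold change at 5 nM per genotype (mean count of at least 20), 2 at either end per mock comparison and 2 per interaction; of other lists, those called at 5 nM in a transgenic line with a log2 change of at least 1. GSTF7, GSTU2, GSTU6, GSTU10, GSTU12, GSTU13, GSTU16 and GSTU20 were added after their values were seen. GR1, GR2, ABCC4 and GPX8 of the other lists fall short of that rule and were also named after their values were seen. One upstream sequence is not reported here.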

Additional observations from a re-analysis of the deposited data

Results flagged for a closer look

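In 7 of 171 groups of member values, 1 library stood apart from the rest of its group by Dixon's criterion, which chance meets in about 1 of 20 groups. In FPKM, GSTF10 was at 406.5 in plt2 mock replicate 3 (243 to 279 in the others), and GSTU8 at 60.83 in plt2 5 nM replicate 1 (43.2 to 47.9). GSTU27 was at 19.55 in gPLT2 0.3 nM replicate 5 (11.4 to 12.9) and at 29.59 in gPLT2C212S mock replicate 1 (12.3 to 16.3). In the same library GSTU4 was at 2.465 (0.505 to 1.03). GSTU14 was at 11.6 in gPLT2C212S 0.3 nM replicate 4 (1.08 to 3.45). GSTU11 was at 0.2599 in gPLT2C212S mock replicate 4, from the only count of that group, with 0 in the others.

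The responses to 5 nM differed between genotypes in the following members, by the interaction term of edgeR's quasi-likelihood test. In the gPLT2 line against plt2 the log2 differences in response were -1.45 for GSTF9, 2.16 for GSTU4 and 2.44 for GSTU11. In the gPLT2C212S line against plt2 they were 4.51 for GSTF7, -1.95 for GSTF9, 0.70 for GSTU1, 2.82 for GSTU4, 3.96 for GSTU5, 5.87 for GSTU11, 0.76 for GSTU19, -2.82 for GSTU20 and 1.32 for GSTU24. Between the transgenic lines (gPLT2C212S minus gPLT2) they were 3.87 for GSTF7, -0.71 for GSTF13, 2.32 for GSTU5, 3.43 for GSTU11, 0.85 for GSTU19, 1.03 for GSTU22 and 1.04 for GSTU24. The GSTF7 difference between the transgenic lines was 2.90 without gPLT2 mock replicate 5, where its call was lost (adjusted p = 0.14). The GSTF13 difference lost its call in 10 of 22 fits that leave out a library, and the GSTU1 difference in 7 of 21. The fitted sizes for GSTF7 and GSTU11 in the gPLT2C212S line rest on 6 and 1 mock counts and depend on the prior count of the fit.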

How the results depend on the processing

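None of 92 followed member fold changes reversed direction over 1812 alternative values, and 131 of these values were no longer past the threshold. Counts of called members moved by over 1.5 times as follows, and the cause was not tested. At 0.3 nM against mock, the plt2 count went from 1 to 0 with the mitochondrial covariate, and the gPLT2 count from 6 to 2 with total-count scaling and 10 with all 47 libraries in 1 fit. Under mock, the gPLT2 count against plt2 went from 3 to 6 with DESeq2, with no filter and with all libraries (1 to 5 when leaving out a library). The gPLT2C212S count against the gPLT2 line went from 7 to 13 with no filter and 12 with all libraries (5 to 11). Between the transgenic lines at 0.3 nM it went from 1 to 3 with DESeq2, 0 with total counts, and 2 with no filter or all libraries (1 to 2). At 5 nM it went from 5 to 9 with total counts and 3 with all libraries (3 to 6), and the gPLT2 count against plt2 from 11 to 7 with total counts. The interaction of the gPLT2 line with plt2 went from 3 to 5 with DESeq2 and 7 with no filter or all libraries (3 to 7), and that between the transgenic lines from 7 to 2 with total counts (5 to 11). With the replicate number as a block, the counts at 5 nM against mock were 10 in plt2, 18 in the gPLT2 line and 17 in the gPLT2C212S line, and no count of any comparison moved by over 1.5 times. The numbers do not pair samples (correlations from -0.339 to 0.246). Leaving out a library gave 9 to 12, 18 to 20 and 17 to 21. At this depth, 12 members did not pass the count filter in any comparison, and no statement is made on their response.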
